A study of Mus musculus with 9 samples.

Results

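The complement genes C1qa, C1qb, C1qc, C4b, C3, Cfb, Cfp, C3ar1 and C5ar1, 9 in all, were examined in mice. The samples were cells labelled tumour-associated macrophages, from fibrosarcomas, and control peritoneal exudate cells. They were chosen by gene name, with earlier results from these same arrays known, so their differences between groups are given here as a description and without individual p-values. The 9 genes are read by 10 probes on 28 of the 59305 spots of the array that are not controls, and they are 9 of the 16463 genes that entered the fit. All 9 were well above background on all 9 arrays, so each would have been kept by the filter on dim probes through any of the groups.

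Total RNA was hybridised to 1-colour Agilent arrays, 3 per group, from C57BL/6J mice. The controls were peritoneal exudate cells (PECs) from mice of that strain. The tumour-associated macrophages (TAMs) came from fibrosarcomas, where cells with much F4/80 protein (F4/80high) were separated from cells with little (F4/80low). F4/80 is the surface protein encoded by Adgre1 that is widely used to mark mouse macrophages. The design names the 3 arrays of a group biological replicates, but the labels do not say how many mice stand behind a sample, how the exudate was raised, which tumour line was grown or which other markers entered the sort. Tissue of origin and tumour exposure differ together between PECs and TAMs and cannot be told apart. Levels are log2 values relative to the array's own 75th percentile of signal, so 0 is that percentile and 1 unit is a doubling.

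Complement is a cascade of blood and tissue proteins that tag particles for uptake, attract leukocytes and can lyse membranes. C1q, assembled from the chains encoded by C1qa, C1qb and C1qc, starts the classical pathway on antibody complexes or dying cells. That pathway cleaves C4 and C2, while the alternative pathway cleaves factor B and is stabilised by properdin, and both converge on C3. The fragments released from C3 and C5 act on receptors such as those encoded by C3ar1 and C5ar1. Liver makes most circulating complement, whereas macrophages and dendritic cells are a main source of C1q.

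The probe sequences below show the stretch of transcript that was read for C1qa, C1qb, Cfb and Cfp, and by the second of the 2 C3 probes, which served as a check on the first. All read transcripts from the minus strand, and positions are those of the array design on mouse build mm9. The probe for C1qa lies at chr4:136452409-136452468, that for C1qb at chr4:136436578-136436637 and that for C1qc at chr4:136445766-136445825. The second C3 probe lies at chr17:57343678-57343737, upstream on the transcript of the first at chr17:57343416-57343475, and the Cfp probe lies at chrX:20502742-20502801. The 60 bases of the Cfb probe span 357 bases of chr17:34993502-34993858, so that probe crosses a splice junction. The exon annotation of this build was not used here.
C1qa probe: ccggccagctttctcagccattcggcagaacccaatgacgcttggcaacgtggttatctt
C1qb probe: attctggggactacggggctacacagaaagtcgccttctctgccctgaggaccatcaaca
C3 second probe: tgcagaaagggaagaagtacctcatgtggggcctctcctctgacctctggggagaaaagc
Cfb probe: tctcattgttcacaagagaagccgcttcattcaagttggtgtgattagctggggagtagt
Cfp probe: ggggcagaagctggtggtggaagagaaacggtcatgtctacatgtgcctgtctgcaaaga

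The 3 C1q genes are direct neighbours among the protein-coding genes of chromosome 4 in RefSeq's order on GRCm38.p6, in the order C1qb, C1qc, C1qa, between Ephb2 and Epha8. Cfb lies next to C2 on chromosome 17, and C5ar1 next to C5ar2 on chromosome 7. Promoters of 6 of the 9 genes were in the RefSeq promoter table (GRCm38.p6). The 250 bases before the start are shown for C1qb and C1qc, which lay on the same side of the PECs in each TAM subset, and for C3, which did not follow them. They cover chr4:136886201-136886450, chr4:136892915-136893164 and chr17:57228137-57228386, are given on the minus strand, and carry in capitals the matches to the motifs searched.
C1qb promoter: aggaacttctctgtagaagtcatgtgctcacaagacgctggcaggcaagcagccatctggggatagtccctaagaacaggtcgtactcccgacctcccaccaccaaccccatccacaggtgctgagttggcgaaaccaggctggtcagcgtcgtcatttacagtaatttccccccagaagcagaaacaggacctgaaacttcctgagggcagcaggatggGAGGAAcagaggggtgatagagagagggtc
C1qc promoter: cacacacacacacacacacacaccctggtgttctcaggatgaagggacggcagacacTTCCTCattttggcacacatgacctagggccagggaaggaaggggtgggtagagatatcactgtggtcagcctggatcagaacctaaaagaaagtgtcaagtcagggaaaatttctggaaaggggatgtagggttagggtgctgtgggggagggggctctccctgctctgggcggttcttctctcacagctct
C3 promoter: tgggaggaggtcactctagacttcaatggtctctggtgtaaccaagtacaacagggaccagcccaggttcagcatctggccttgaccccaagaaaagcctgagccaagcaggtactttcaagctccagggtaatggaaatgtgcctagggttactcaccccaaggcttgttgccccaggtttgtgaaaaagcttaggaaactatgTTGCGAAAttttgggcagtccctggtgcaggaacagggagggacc

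Each motif was searched on both strands from 250 bases before to 50 after the start. The PU.1 core GAGGAA was found in 3 of the 6 promoters: in C1qb at position −30 relative to the start, in C1qc at position −193 on the opposite strand (read as TTCCTC above), and in Cfp at positions 7 and 23, also on the opposite strand. It is also present in 28.3% of the 32851 promoters of the table. The C/EBP core TTGCNNAA was found in C3 alone of the 6, at position −45 as TTGCGAAA, against 10.8% of all promoters. The interferon-stimulated response element core AAANNGAAA was found in C3ar1 alone, at position −210, against 10.6% of all promoters. None of the 6 held TTCNNNGAA (STAT core, 8.30% of all promoters), GGANNTTCC (NF-kappaB, 4.26%) or TGCTGAC (Maf element core, 4.67%). These matches describe letters in a window and say nothing of binding.

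The 3 C1q chains were higher in F4/80high TAMs and lower in F4/80low TAMs than in PECs, and their arrays formed 3 separate ranges. The mean log2 level of the 3 chains was 6.10, 5.20 and 6.18 in PECs, 8.48, 8.18 and 7.75 in F4/80high TAMs and 2.55, 3.76 and 4.04 in F4/80low TAMs, in replicate order. That is 4.95-fold above PECs in F4/80high TAMs, 5.21-fold below PECs in F4/80low TAMs, and 25.8-fold between the TAM subsets. In bulk RNA, fewer C1q-expressing cells and less C1q RNA per cell cannot be told apart.

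For C1qa, which encodes the A chain, the PEC arrays read 5.39, 4.73 and 5.65, the F4/80high arrays 8.43, 8.11 and 7.52 and the F4/80low arrays 2.37, 3.60 and 3.91. The group means were 5.26 ± 0.47 (SD, n = 3), 8.02 ± 0.46 (SD, n = 3) and 3.30 ± 0.82 (SD, n = 3), and no array of one group reached the range of another. C1qa was higher in F4/80high TAMs than in PECs by 2.77 (SE 0.42; 6.80-fold), and the F4/80low subset lay below PECs with a log2 difference of −1.96 (3.89-fold). Among the chains C1qa had the widest margin above PECs in F4/80high TAMs and the narrowest below them in F4/80low TAMs; whether the chains differ in this was not tested.

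C1qb, the B chain, read 6.38, 5.24 and 6.33 in PECs, 8.27, 7.97 and 7.60 in F4/80high TAMs and 2.42, 3.60 and 3.92 in F4/80low TAMs. Its differences from PECs were 1.97 (SE 0.43; 3.91-fold) in F4/80high and −2.66 (6.34-fold) in F4/80low TAMs. C1qc, the C chain, read 6.54, 5.65 and 6.56 in PECs, 8.74, 8.45 and 8.13 in F4/80high TAMs and 2.85, 4.07 and 4.27 in F4/80low TAMs. Its differences from PECs were 2.19 (SE 0.40; 4.57-fold) and −2.52 (5.73-fold). Between the TAM subsets the 3 chains differed by 4.73 (26.5-fold) for C1qa, 4.63 (24.8-fold) for C1qb and 4.71 (26.2-fold) for C1qc, each with all 3 F4/80high arrays above all 3 F4/80low arrays. Within PECs the replicate 2 array was lowest for all 3 chains, and within F4/80low TAMs the replicate 1 array was lowest for all 3.

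**Figure D1:**
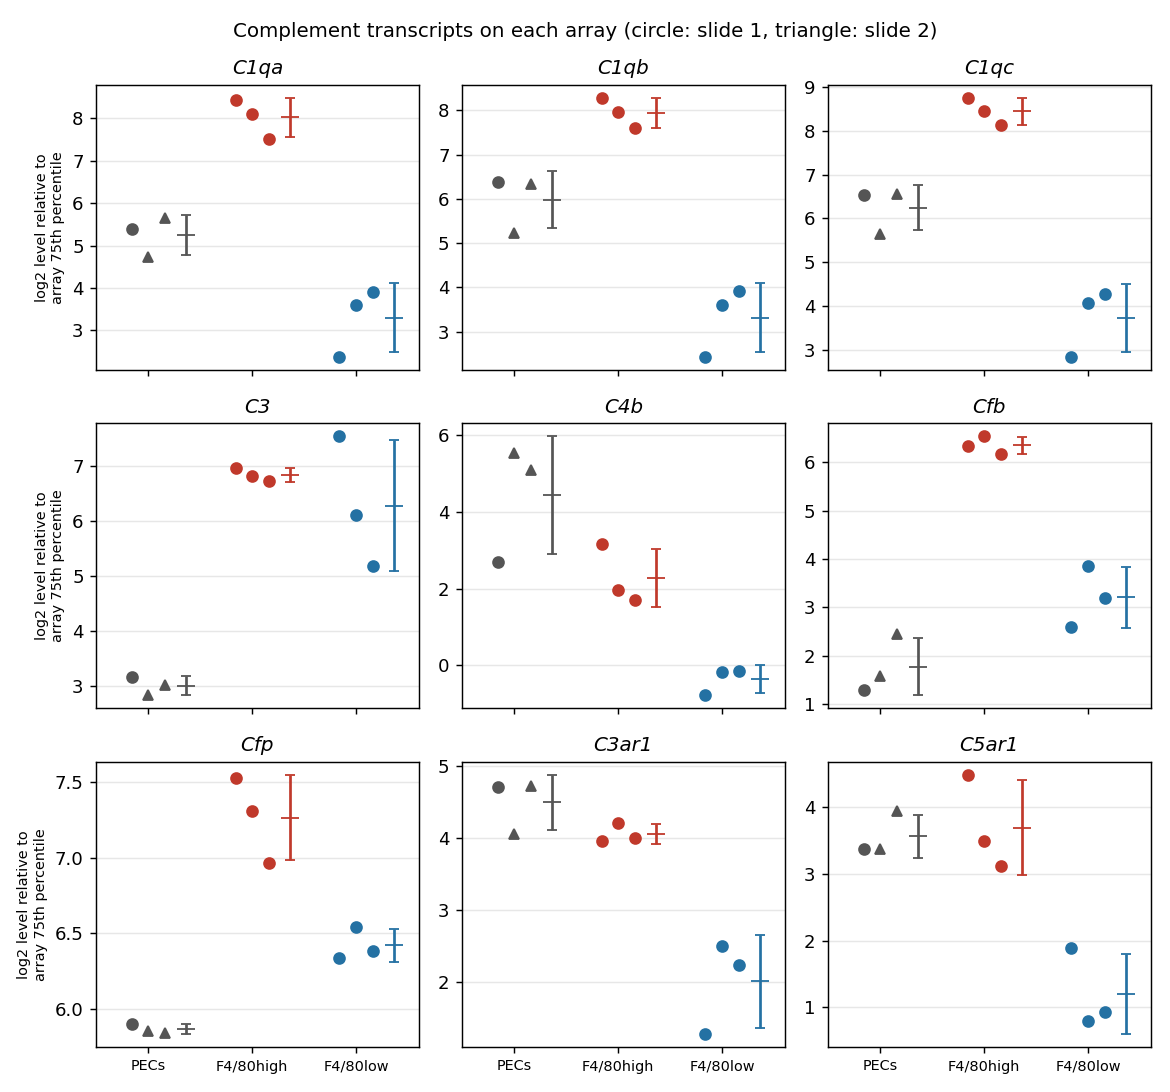
Log2 level relative to the array's 75th percentile (vertical axis) of each of the 9 complement genes on each of the 9 arrays, by group (horizontal axis), with the group mean ± SD (n = 3) beside the points; circles are arrays of slide 1 and triangles arrays of slide 2. The C1q panels show F4/80high TAMs above and F4/80low TAMs below all PEC arrays, while C3 is above PECs in both TAM subsets and C4b is lowest in F4/80low TAMs; vertical scales differ between panels.

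C4b, which encodes the complement C4 chain cleaved after C1q is activated, was lower in TAMs, and least abundant in the F4/80low subset. The PEC arrays read 2.69, 5.54 and 5.09, the F4/80high arrays 3.15, 1.97 and 1.72 and the F4/80low arrays −0.78, −0.17 and −0.13. The PEC replicate 1 array lay between the F4/80high arrays, so these groups overlapped, while every F4/80low array lay below all others. The log2 difference from PECs was −2.16 (SE 0.68; 4.46-fold) in F4/80high and −4.80 (27.9-fold) in F4/80low TAMs, and F4/80high TAMs exceeded F4/80low TAMs by 2.64 (6.25-fold). Without PEC replicate 1 the first 2 of these differences became −3.03 and −5.68. Without PEC replicate 2 the F4/80high difference from PECs shrank to −1.61 and no longer passed the threshold. Nor did it pass without PEC replicate 3 or F4/80high replicate 2 or 3. Within slide 1, where PECs have a single array, it was −0.41. The C4b probe is assigned by the array files to a second RefSeq transcript as well, so a near-identical copy of the gene may contribute to its signal.

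C3, the central component that both pathways cleave, was higher than in PECs in both TAM subsets. The PEC arrays read 3.17, 2.83 and 3.02, the F4/80high arrays 6.96, 6.81 and 6.72 and the F4/80low arrays 7.53, 6.11 and 5.18. Both subsets lay entirely above the PECs, by 3.82 (SE 0.48; 14.1-fold) in F4/80high and 3.26 (9.60-fold) in F4/80low TAMs. The F4/80low arrays spanned a far wider range (6.27 ± 1.19, SD, n = 3) than the F4/80high arrays (6.83 ± 0.12, SD, n = 3), and the 2 subsets overlapped, with a difference of 0.56 (SE 0.48). Without F4/80low replicate 1, the highest array, that difference became 1.19 and passed the threshold, and the F4/80low excess over PECs became 2.63. The second C3 probe gave differences of 3.30, 3.00 and 0.30 (SE 0.49) for the same 3 comparisons, from readings of 2.71, 2.40 and 2.68 in PECs, 6.14, 5.99 and 5.55 in F4/80high and 6.83, 5.48 and 4.48 in F4/80low TAMs. It ranked the F4/80low replicates as the first probe did.

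Cfb, encoding the alternative-pathway protease factor B, was higher in both TAM subsets, with a greater excess in F4/80high TAMs. It read 1.30, 1.59 and 2.45 in PECs, 6.33, 6.53 and 6.17 in F4/80high TAMs and 2.59, 3.85 and 3.19 in F4/80low TAMs. No groups overlapped, although the highest PEC array and the lowest F4/80low array lay close together. The excess over PECs was 4.57 (SE 0.36; 23.7-fold) in F4/80high and 1.43 (2.70-fold) in F4/80low TAMs, and the subsets differed by 3.13 (8.77-fold).

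Cfp, encoding properdin, which stabilises the alternative C3 convertase, showed the smallest spread within PECs of the 9 genes. It read 5.90, 5.86 and 5.84 in PECs, 7.52, 7.31 and 6.96 in F4/80high TAMs and 6.33, 6.54 and 6.38 in F4/80low TAMs, so the 3 groups did not overlap. It exceeded PECs by 1.40 (SE 0.18; 2.64-fold) in F4/80high and 0.55 (1.47-fold) in F4/80low TAMs, and the subsets differed by 0.85 (1.80-fold). The F4/80low excess was small enough to depend on scaling: centring arrays on the median left 0.079.

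The receptor genes C3ar1 and C5ar1 overlapped between PECs and F4/80high TAMs and were lower in F4/80low TAMs. C3ar1, encoding the receptor for the C3a fragment, read 4.71, 4.05 and 4.72 in PECs, 3.96, 4.22 and 4.0 in F4/80high TAMs and 1.28, 2.50 and 2.24 in F4/80low TAMs. PECs and F4/80high TAMs overlapped (−0.44, SE 0.32), and the F4/80low arrays lay below all others, by −2.49 against PECs (5.61-fold) and with F4/80high TAMs 2.05 above them (4.14-fold). C5ar1, encoding a receptor for the C5a fragment, read 3.38, 3.38 and 3.94 in PECs, 4.49, 3.49 and 3.11 in F4/80high TAMs and 1.89, 0.79 and 0.92 in F4/80low TAMs. The F4/80high and PEC arrays overlapped again (0.13, SE 0.40), a value whose sign changed with 3 of the alternatives. F4/80low TAMs differed from PECs by −2.37 (5.17-fold) and F4/80high TAMs exceeded F4/80low TAMs by 2.50 (5.65-fold).

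At an adjusted p under 0.05 in limma's fit, 6 of the 9 genes were higher and 1 was lower in F4/80high TAMs than in PECs, where 25.0% of all 16463 genes were called higher and 28.0% lower. In F4/80low TAMs against PECs, 3 were higher and 6 lower, beside 22.7% and 29.2% of all genes. In F4/80high against F4/80low TAMs, 8 were higher and 0 lower, beside 18.6% and 14.0%. The median log2 difference of the 9 was 1.97, −2.37 and 2.64 in these comparisons, beside 0.0020, −0.091 and 0.081 for all genes. Since the genes were chosen with these contrasts known, nothing is read from the counts. The PEC arrays are shared by the first 2 comparisons. Centring arrays on the median shifted the median of all genes to −0.157, −0.565 and 0.396, and the share of calls that were higher went from 47.2% to 39.6%, from 43.8% to 22.1% and from 57.1% to 75.9%.

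**Figure D2:**
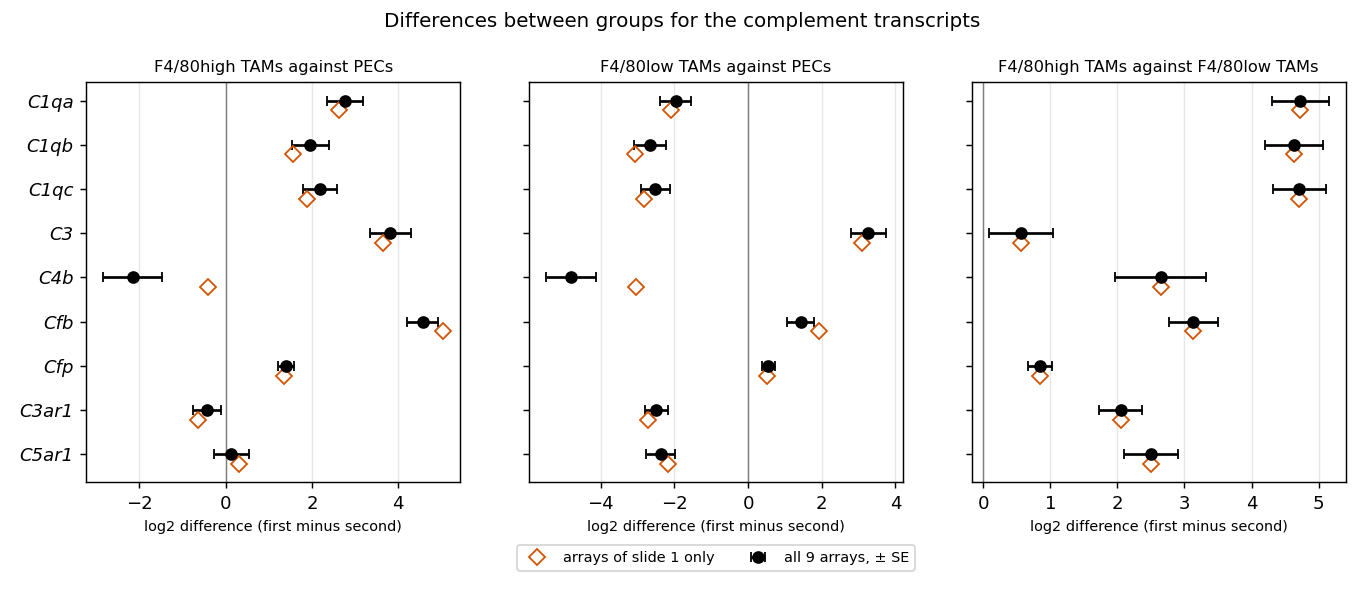
Log2 difference between groups (horizontal axis, first group minus second) of the 9 complement genes in the 3 comparisons; filled circles with bars are the values of limma's fit ± SE over all 9 arrays, and open diamonds the values over the 7 arrays of slide 1. Diamonds lie near the circles for most genes, whereas C4b in F4/80high TAMs against PECs moves from −2.16 to −0.41.

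The 6 TAM arrays and PEC replicate 1 shared a slide, and PEC replicates 2 and 3 lay on another. Within slide 1, where PECs have a single array, the mean C1q difference was 2.03 in F4/80high and −2.66 in F4/80low TAMs. C3 differed from PECs by 3.66 and 3.10 and Cfb by 5.04 and 1.91 there. In all, 3 values no longer passed the threshold: C1qb in F4/80high TAMs (1.57), C4b in F4/80high TAMs (−0.41) and Cfp in F4/80low TAMs (0.52). C4b in F4/80low TAMs differed by −3.05 there. A fit with slide as a block gave the same differences. The part that slide plays in the C4b difference was not tested.

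Repeated spots gave the spot-to-spot spread within an array for C1qc and C3, whose probes (the first probe, for C3) are each printed 10 times. The SD over the spots of an array had a median of 0.0563 for C1qc and 0.0454 for C3. The greatest spot SD was on F4/80high replicate 3 for both genes (0.226 and 0.236), where 1 spot of each stood apart, at 8.76 against a median of 8.08 for C1qc and at 7.34 against 6.66 for C3. On the other 8 arrays the SD did not exceed 0.0814 and 0.0739.

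**Figure D3:**
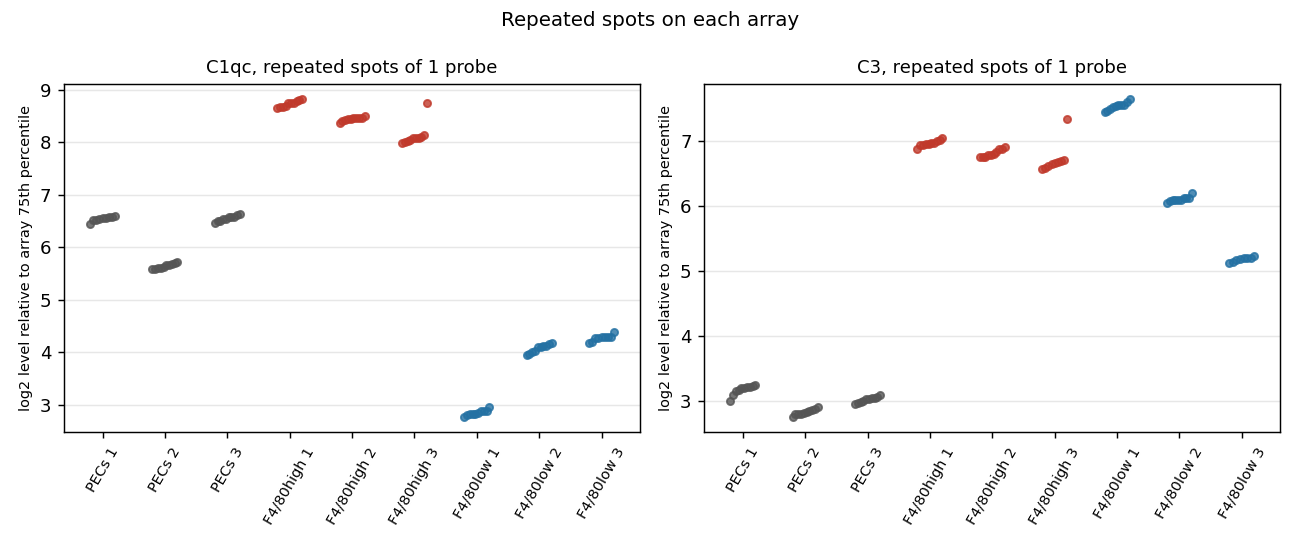
Log2 level relative to the array's 75th percentile (vertical axis) of every used spot of the C1qc probe (left) and of the first C3 probe (right) on each array (horizontal axis); points within an array are sorted by value. On F4/80high replicate 3, 1 spot of each gene lies above the rest; the spots of some arrays of one group, such as C1qc in PEC replicates 1 and 3, cover the same range.

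Cell type markers also differed between the groups, though not all members of a list did so in the same direction. The macrophage markers Adgre1, Csf1r, Cd68, Mertk, Fcgr1 and Lyz2 were all above background in PECs and F4/80high TAMs, with summed levels of 823 to 1043 and 577 to 886 times the array's 75th percentile. The sum was 479 to 624 in F4/80low TAMs, where Mertk was not well above background on any array. Csf1r made up most of each sum. Its log2 levels overlapped between the subsets, at 8.43 to 9.15 in F4/80high and 8.74 to 9.07 in F4/80low TAMs. Adgre1, Mertk, Fcgr1 and Lyz2 were lower on every F4/80low array than on any F4/80high array, whereas Cd68 was higher. Neutrophil markers (7 of the 8 listed were on the array) summed to 122 to 168 in PECs, 228 to 325 in F4/80high and 1815 to 4741 in F4/80low TAMs, and all 7 were above background in the F4/80low subset. Csf3r made up most of the sums in PECs and F4/80high TAMs. Its log2 levels overlapped between the subsets, at 7.74 to 7.83 in F4/80high and 7.50 to 7.99 in F4/80low TAMs. S100a8 and S100a9 made up most of the F4/80low sums. Along with Retnlg and Cxcr2, they were higher on every F4/80low array than on any other array, whereas Elane, Mpo and Csf3r overlapped another group. F4/80low replicate 1, with the lowest C1q and the highest C3, also had the highest neutrophil sum and, within its group, the highest macrophage sum. Without that array the C1q mean differences involving F4/80low TAMs were −1.93 against PECs and 4.24 against F4/80high TAMs. T cell markers summed to 18.2 to 38.0 in F4/80low TAMs, 12.7 to 17.2 in F4/80high TAMs and 6.58 to 11.3 in PECs. Cd4 made up most of the sums in F4/80high TAMs and PECs, and was higher in F4/80high than in F4/80low TAMs. Cd3d, Cd3g and Cd8a were above background on every F4/80low array and on no other array, and Cd3e and Lck were highest in F4/80low TAMs. NK cell markers summed to 9.11 to 18.0 in F4/80low TAMs, 1.57 to 1.62 in F4/80high TAMs and 1.03 to 1.43 in PECs. Gzma, above background in F4/80low TAMs alone, made up most of the F4/80low sums, and Prf1 made up most of the others. Ncr1 and Klrk1 were above background on no array. Dendritic cell markers summed to 33.3 to 79.5 in F4/80low and 34.8 to 43.6 in F4/80high TAMs against 0.468 to 0.848 in PECs, and nearly all of the TAM sums was Ccr7 (log2 levels of 5.02 to 5.35 in F4/80high and 5.0 to 6.22 in F4/80low TAMs). Of the other dendritic cell markers, Zbtb46 was above background in F4/80high TAMs alone, Flt3 on all 3 arrays of F4/80low TAMs alone, Clec9a on 2 F4/80low arrays, and Xcr1 and Cd209a on no array. Fibroblast markers summed to 9.38 to 18.9 in F4/80low TAMs and to no more than 3.17 in the other groups, an excess carried mostly by Thy1 (log2 levels of 2.67, 4.02 and 2.62), which T cells also express; Lum, Pdgfra and Pdgfrb were above background on no array. Mesothelial markers summed to 1.87 to 2.50 in F4/80low TAMs, where Msln alone of the 5 was above background, and to no more than 0.50 elsewhere. The markers of large peritoneal macrophages summed to 14.1 to 30.5 in PECs and to no more than 4.23 in TAMs, where Gata6, Vsig4 and Prg4 were above background on no array; Timd4 and Alox15 were above it on no array of any group. The part of other cells in the complement values was not tested.

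Of 49 other complement genes listed, 48 were on the array by name and 17 passed the filter on dim probes. The list was chosen with earlier results of these data known, so the counts and adjusted p-values of its genes are given as a description. Among the 31 that did not pass were the C1s genes, the mannose-binding lectins and their proteases, Cfd, C6, C7, C9, Cfi and Serping1. Of the 17, Colec12 and Vsig4 passed through PECs alone, C2 through F4/80high TAMs alone and Clu through F4/80low TAMs alone. For these genes the filter favoured the direction in which that group is high, and the counts and medians below include them. By limma's adjusted p, 0 of the 17 rose and 10 fell in F4/80high TAMs against PECs, with a median of −1.07, beside 25.0% and 28.0% of all genes. In F4/80low TAMs against PECs 2 rose and 10 fell, with a median of −0.96, beside 22.7% and 29.2% of all genes. Between the subsets 5 were higher and 5 lower in F4/80high TAMs, with a median of 0.051, beside 18.6% and 14.0% of all genes. Within slide 1, where PECs have a single array, Fcna, Colec12, Itgax, Itgb2, Vsig4 and Cd93 were again lower in both TAM subsets than in PECs. C2 was 2.42 higher in F4/80high TAMs there, against 1.12 over all arrays. In F4/80low TAMs Cd59a was 2.25 higher there, and Clu was 2.21 higher there against −0.28 over all arrays.

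Of the classical pathway, C1ra, encoding a protease of the C1 complex, was 2.74 higher in F4/80high than in F4/80low TAMs (limma adjusted p = 0.0034), though above background on 1 of 3 F4/80low arrays. It fell by 1.51 in F4/80low TAMs against PECs (adjusted p = 0.034), which no longer passed on slide 1 alone (−0.99) or without F4/80low replicate 3 (−0.86), PEC replicate 2 (−1.43) or PEC replicate 3 (−1.33), or with normexp correction (−0.24), and its difference of 1.24 in F4/80high TAMs did not pass (adjusted p = 0.069). A second C1ra probe gave 2.49, −0.58 and 1.91 for the same comparisons. C2, the neighbour of Cfb and the protease that pairs with C4, was 2.02 higher in F4/80high than in F4/80low TAMs (adjusted p = 0.026). It no longer passed without F4/80low replicate 1 or 3 or without F4/80high replicate 1 or 2. Nor did it pass without the filter on dim probes (limma adjusted p = 0.071), which C2 had passed through F4/80high TAMs alone. Against PECs its differences were 1.12 and −0.90, with adjusted p = 0.13 and 0.22. Within slide 1 these became 2.42 (adjusted p = 0.028, and 0.015 with slide as a block) and 0.40 (adjusted p = 0.68), the latter with the sign turned. Normexp background correction reduced the differences between the subsets to 0.85 for C1ra and 0.68 for C2, both still passing.

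Of the lectin pathway, Fcna, encoding the recognition protein ficolin-A, fell in both TAM subsets, by 3.74 in F4/80high (limma adjusted p = 7.3e-05) and by 2.45 in F4/80low TAMs (adjusted p = 0.0011). Within slide 1 its differences were −2.64 and −1.35. Between the subsets Fcna differed by −1.29, lower in F4/80high TAMs (adjusted p = 0.038), which no longer passed when any of the 6 TAM arrays was left out (−1.40 to −1.13). Colec12, a collectin scavenger receptor, was above background in PECs alone and was at least 3.68-fold lower in F4/80high and at least 3.46-fold lower in F4/80low TAMs. Against the PEC array of slide 1 alone the bounds were 1.85-fold and 1.73-fold. Normexp correction gave smaller log2 differences of −0.77 and −0.75, so the Colec12 bounds hold for the main scaling only. These lower bounds set the PEC mean against the dimmest signal called well above background on each TAM array.

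Among regulators, Cd59a, encoding an inhibitor of the membrane attack complex, rose by 1.70 in F4/80low TAMs (adjusted p = 0.00039) and fell by 1.07 in F4/80high TAMs (adjusted p = 0.0043), the latter not passing within slide 1 (−0.52) or with normexp correction (−0.30), which also reduced the rise to 0.85. Its levels were 0.95, 1.07 and 1.17 in F4/80low, −1.82, −1.72 and −1.58 in F4/80high and −1.18, −0.39 and −0.34 in PECs, without overlap. Cr1l, encoding the membrane regulator Crry, fell by 0.82 in F4/80low TAMs (adjusted p = 0.0093; −0.61 within slide 1, not passing), with −0.49 in F4/80high TAMs (adjusted p = 0.071). Clu, encoding clusterin, was above background on no F4/80high array and on all 3 F4/80low arrays, where it was at least 2.40-fold higher (adjusted p = 0.033). This did not pass when any TAM array but F4/80high replicate 3 was left out. Nor did it pass without the filter on dim probes (limma adjusted p = 0.089). Clu had passed that filter through F4/80low TAMs alone, so the filter favoured this direction. With normexp correction the log2 difference of F4/80high from F4/80low TAMs was −0.58, not passing, so the Clu bound holds for the main scaling only. PECs ranged from −3.18 to 1.60 for Clu, and its fall in F4/80high TAMs against them (adjusted p = 0.014) did not pass within slide 1 (−0.94).

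Among receptors, Vsig4, a macrophage receptor for C3 fragments, was above background in PECs alone and was at least 54.5-fold lower in F4/80high and at least 51.2-fold lower in F4/80low TAMs. Against the PEC array of slide 1 alone the bounds were 39.6-fold and 37.2-fold. The Vsig4 differences were smaller with normexp correction (−3.84 and −3.86 on the log2 scale) and in the deposited value table (−4.0 and −4.11), so the bounds hold for the main scaling only. Itgax and Itgb2, which encode the chains of complement receptor CR4, fell by 3.17 and 2.61 in F4/80high and by 5.08 and 2.05 in F4/80low TAMs, with limma adjusted p of 3.4e-05 or less. Itgax was also 1.90 higher in F4/80high than in F4/80low TAMs (adjusted p = 0.0014), while Itgb2 was 0.56 lower (adjusted p = 0.047), which did not pass with the replicate block (adjusted p = 0.077), nor when any array but PEC replicate 1 or F4/80low replicate 3 was left out. Itgam, the other partner of Itgb2, differed by −0.70, −0.68 and −0.03 and did not pass in any comparison by the probe that stands for it. Its F4/80low arrays spread widely by that probe (SD 1.34), and 2 other Itgam probes gave −0.88 (SE 0.29) and −0.55 (SE 0.36) in F4/80high and −1.13 and −1.14 in F4/80low TAMs against PECs. Cd93, a C-type lectin receptor once described as binding C1q, fell by 1.57 in F4/80high (adjusted p = 0.0030) and by 3.85 in F4/80low TAMs (adjusted p = 2.2e-05), and was 2.28 higher in the F4/80high subset (adjusted p = 0.00082).

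C1qbp, encoding a mitochondrial protein that can bind C1q, was 0.73 lower in F4/80high than in F4/80low TAMs (limma adjusted p = 0.022), which did not pass with median centring (−0.42) or without F4/80high replicate 2 or 3 or F4/80low replicate 1 or 3 (−0.68 to −0.64). Calr, encoding calreticulin, fell by 0.86 and 0.96 in the F4/80high and F4/80low subsets (adjusted p = 0.018 and 0.011), with −0.46 and −0.56 within slide 1, neither passing. The F4/80high value also did not pass without replicate 2 or 3 of the PECs or of F4/80high TAMs (−0.83 to −0.69). C5ar2, the neighbour of C5ar1 and a second C5a receptor, rose by 1.20 in F4/80low TAMs (adjusted p = 0.035), but its other probe gave −0.67, the arrays overlapped, slide 1 alone gave 0.41, and the call needed PEC replicates 2 and 3 and F4/80low replicates 1 and 3 (0.84 to 1.30 without 1 of them, none passing). C8g, of the terminal pathway, was 1.06 higher in F4/80high than in F4/80low TAMs (adjusted p = 0.043), with 1 of the 3 F4/80low arrays above background, but its other probe gave 0.02, and it did not pass without PEC replicate 2, any F4/80high array or F4/80low replicate 1 or 3 (0.94 to 1.22).

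**Figure D4:**
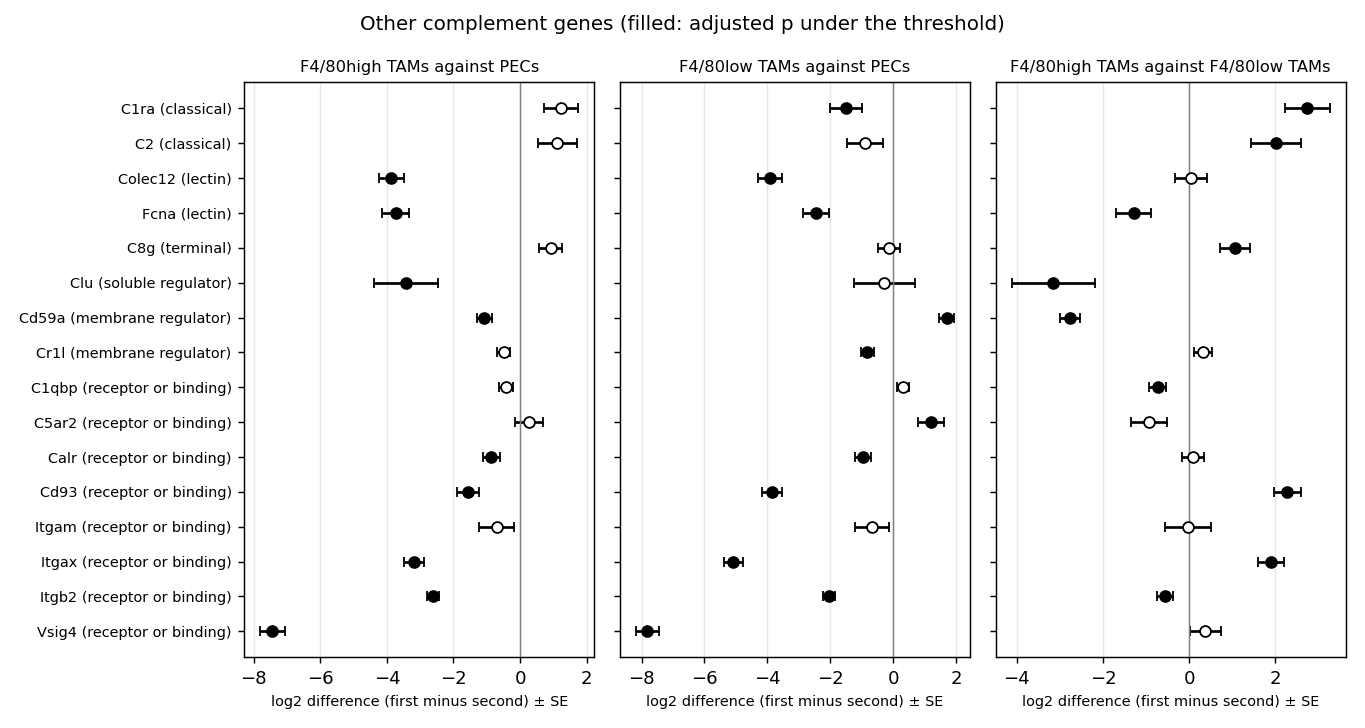
Log2 difference ± SE from limma's fit (horizontal axis, first group minus second) of other complement genes that passed the filter, in the 3 comparisons; filled points have an adjusted p under 0.05. Most filled points lie below 0 against PECs; for Vsig4, Colec12 and Clu the fitted values rest on groups that were not above background and are not fold changes to be quoted.

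The genes whose log2 levels followed the C1q mean most closely over the 9 arrays, by Pearson's r and as a description, were Dnajc18 (0.989), Rcn2 (0.988), Stab1 (0.985), Ms4a7 (0.984) and Slc12a9 (0.983). Stab1, a scavenger receptor, had group means of 3.84 in PECs, 5.07 in F4/80high and 1.94 in F4/80low TAMs, and Ms4a7, a membrane protein of macrophages, had 6.85, 8.13 and 5.21. The closest to C3 were Mmp25 (0.993), Dazap1 (0.989), the transcript ENSMUST00000097503 (0.987), Fas (0.985) and P2ry13 (0.984). Fas, a death receptor, had group means of −0.52, 3.48 and 3.13. The closest to Cfb were Olfm1 (0.992), the transcript ENSMUST00000087884 (0.992), Psmb8 (0.991), Ccdc86 (0.990) and Mul1 (0.990). Psmb8, an interferon-inducible subunit of the immunoproteasome, had group means of 4.42, 6.25 and 4.99. The arrays form 3 groups, so a gene whose group means have a similar order and spacing can reach a high r.

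Across the arrays, between 36.1% and 38.3% of spots other than controls exceeded background clearly, and 0 were saturated. Arrays of one group correlated at 0.979 to 0.992 in PECs, 0.977 to 0.989 in F4/80high and 0.964 to 0.979 in F4/80low TAMs over all genes tested. With 3 arrays a group the number of arrays limits the precision, and p-values measure the spread between these samples.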

How the data were processed

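In all, 9 1-colour arrays were analysed, 3 per group. The deposited scanner files hold the intensity of each spot from Agilent Feature Extraction 10.5.1.1, per the file headers, already background-corrected by that software. The authors also deposited a table of processed values for 9703 probes, whose range shows a log2 scale (column medians 8.26 to 8.35); its normalization and centring are not given in the sources used here, and it served as an alternative. The complement genes and all gene lists were chosen with earlier results of these data known.

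Control spots and flagged outliers were left out, log2 intensities were set relative to each array's 75th percentile, spots of a probe were averaged, and a probe was kept if all 3 arrays of any group put it well above background. The probe with the highest mean stood for a gene. RefSeq names were matched for 26413 of 55681 probes. limma 3.58.1 in R 4.3.3 fitted the 3 groups (lmFit, eBayes, Benjamini-Hochberg, threshold 0.05), after the script was tested on simulated data. A lower bound on a fold takes the dim group at the higher of the probe's own signal and the lowest signal well above background on the array.

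Named are the 9 genes, other complement genes past the threshold in at least 1 comparison, and the 5 genes most like C1q, C3 and Cfb; Itgam and the genes named as not passing the filter were chosen after their values were seen. Of the other complement genes, 1 is counted but not reported here. Same-numbered F4/80high and F4/80low arrays deviated together (residual r of 0.23, 0.17 and 0.13), while those with different numbers gave −0.17 to 0.02. The numbers may thus pair the TAM subsets, which the labels do not state. PEC arrays gave −0.10 to 0.09 with same-numbered TAM arrays and −0.11 to 0.13 with the others, so values up to 0.13 also arose between different numbers. Alternatives covered background correction, scaling, the filter, probe choice, slide, replicate block, the deposited table and each array left out.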

Additional observations from a re-analysis of the deposited data

Results flagged for a closer look

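C1qa, C1qb and C1qc were flagged for their differences between F4/80high and F4/80low TAMs. Every F4/80high array also lay above, and every F4/80low array below, all PEC arrays. Other genes, such as Stab1 and Ms4a7, had the same order of group means. The log2 differences between F4/80high and F4/80low TAMs were 4.73 for C1qa, 4.63 for C1qb and 4.71 for C1qc. Whether the effects relative to PECs differ between the TAM subsets was not tested beyond this difference of levels, and both rest on the same PEC arrays.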

How the results depend on the processing

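The mean C1q difference kept its direction under every alternative run, between 2.00 and 2.50 in F4/80high TAMs and between −2.85 and −1.93 in F4/80low TAMs against PECs, and between 4.22 and 5.00 between the subsets. Of 519 values of the 9 genes under alternatives, 496 kept direction and side of the threshold, 19 no longer passed, 1 newly passed and 3 changed sign. The sign changes were all C5ar1 in F4/80high TAMs against PECs: −0.0031 with normexp correction, −0.029 with median centring and −0.27 without F4/80high replicate 1 (−0.27 to 0.42 over single arrays left out). Values that no longer passed were those of Cfp in F4/80low TAMs (normexp 0.31, median centring 0.079, slide as a block 0.52, and 0.49 to 0.55 without PEC replicate 2 or 3 or F4/80low replicate 2), Cfb there with median centring (0.96), C1qb in F4/80high TAMs with slide as a block (1.57), and C4b in F4/80high TAMs against PECs (without the filter on dim probes, −0.41 with slide, and −2.0 to −1.61 without PEC replicate 2 or 3 or F4/80high replicate 2 or 3) and against F4/80low TAMs (normexp 1.85, and 2.21 without F4/80high replicate 1). Of the 17 other complement genes, 10 passed between the subsets, against 6 with normexp and 4 to 10 with an array left out. Of all 16463 genes, 5369 passed there, against 4942 with normexp and 3917 to 5510 with an array left out. In F4/80low TAMs against PECs 12 of the 17 passed, beside 8541 of all 16463 genes. Without the filter, where more genes are tested, 22 of 48 passed, beside 14388 of all 36492 genes. The causes were not tested. With the replicate block, 7, 9 and 8 of the 9 complement genes passed in the 3 comparisons, as without it, and the C1q mean between the subsets stayed at 4.69. Of the 17 other complement genes, 12, 12 and 9 passed with it, beside 8587, 8348 and 5187 of all 16463 genes. The deposited table held 8 of the 9 genes (not C4b) and changed none of their calls.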
